A study of Rattus norvegicus with 12 samples.

Results

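The NF-kB pathway was examined in cultured rat aortic rings through 40 genes for its subunits, inhibitors, adaptors, kinases, feedback proteins and induced genes. Members were found by symbol in the array's gene annotation, and a gene with several probe sets was represented by its brightest. Of the 40 listed, 34 were measured, of 14324 genes in all. Rel, Relb, Traf1, Tnfaip2, Tnfaip3 and Cebpd are not analysed here. The list was made by name and not by measured values (the choice of probe set concerned Map3k14 alone), but it was drawn up with earlier results of these data known.

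Rings of aorta from male Fisher 344 rats of 1 to 2 months were grown in collagen or fibrin gel in serum-free EBM medium. In each gel some cultures received 10 ng/ml recombinant rat TNF-alpha and the others were left untreated, and RNA was taken at day 2. The untreated groups are called collagen control and fibrin control, the treated ones collagen TNF and fibrin TNF. Each of the 4 had 3 biological replicates, and every sample combined 4 to 6 ring cultures. No genetic change, other agent or fresh tissue sample was part of these groups, so untreated cultures were themselves rings after 2 days in a gel.

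NF-kB is a family of transcription factors that dimerize and are held in the cytoplasm by IkB proteins. When TNF binds its receptor, adaptor proteins recruit the IkB kinase complex, IkB is phosphorylated and destroyed, and the freed dimers enter the nucleus. Among the genes they switch on are several of their own inhibitors, which form a feedback loop, and genes for survival, adhesion and inflammation. In the vessel wall, endothelium, smooth muscle, fibroblasts and macrophages can all use this pathway.

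Values are log2 expression levels, so a difference of 1 is a 2-fold change. A gene is said to be called, or to have risen or fallen, where its Benjamini-Hochberg adjusted p over the 14324 genes was under 0.05 in a limma fit with 1 mean per group over the 12 arrays. Errors of differences are standard errors of that fit, errors of levels are SD with n = 3, and intervals are 95%. The labels do not say whether replicates came from different animals, so the p-values reflect only how far these samples spread, which may be technical.

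The array covers a whole tissue. Mean log2 levels over the 12 arrays ran from 7.75 (Pi16) to 13.51 (Dcn) for 6 fibroblast markers, from 6.68 (Cnn1) to 10.40 (Myh11) for 6 smooth muscle markers and from 5.38 (Emcn) to 10.37 (Tie1) for 4 endothelial markers. Those of 4 T and B cell markers ran from 3.03 (Cd3g) to 4.19 (Cd3d). The T and B cell levels all lay below the lowest array median, 5.89, and show no clear signal for that list. Probes differ in response, so the levels of the lists give no make-up of the tissue. In such samples fewer cells of a type and less RNA per cell cannot be told apart.

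The proximal promoters of members are described first, searched for the DNA motif by which NF-kB is known. RefSeq promoter windows of assembly GRCr8, 250 bases before to 50 after the annotated gene start, were found for 28 of the 34 measured members. Both strands were searched for the classical NF-kB consensus decamer, which opens with G bases and a purine and closes with pyrimidines ending in C bases. It was present in 10 of the 28 windows, against 7.5% of all 33469 windows in the table. Of the 12 matched members that rose with TNF in at least 1 gel, 8 held it (Tnip1, Nfkbia, Nfkb2, Traf3, Nfkbiz, Nfkbie, Nfkb1 and Bcl3). Of the 16 others, 2 did, namely Map3k8 and Ikbkg. Nfkbib, Zc3h12a, Birc2 and Sod2 rose with TNF in at least 1 gel and had no match in their windows. A match describes letters and does not show binding. The windows printed are those of the 4 members with the motif that were called higher in the most comparisons, with the motif in capitals, 5′ to 3′ on the gene's strand.
Tnip1: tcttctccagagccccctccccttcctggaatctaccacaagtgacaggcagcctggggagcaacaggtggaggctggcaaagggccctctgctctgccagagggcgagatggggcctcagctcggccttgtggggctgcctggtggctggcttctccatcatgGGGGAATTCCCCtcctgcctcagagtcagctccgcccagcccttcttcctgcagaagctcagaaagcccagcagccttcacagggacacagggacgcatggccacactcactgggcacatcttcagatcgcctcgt
Nfkbia: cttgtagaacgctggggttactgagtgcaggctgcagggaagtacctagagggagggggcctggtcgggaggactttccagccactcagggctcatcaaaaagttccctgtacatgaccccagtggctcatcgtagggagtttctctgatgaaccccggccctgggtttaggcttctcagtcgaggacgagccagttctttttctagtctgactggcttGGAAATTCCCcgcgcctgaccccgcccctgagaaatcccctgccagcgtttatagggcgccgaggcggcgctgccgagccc
Nfkb2: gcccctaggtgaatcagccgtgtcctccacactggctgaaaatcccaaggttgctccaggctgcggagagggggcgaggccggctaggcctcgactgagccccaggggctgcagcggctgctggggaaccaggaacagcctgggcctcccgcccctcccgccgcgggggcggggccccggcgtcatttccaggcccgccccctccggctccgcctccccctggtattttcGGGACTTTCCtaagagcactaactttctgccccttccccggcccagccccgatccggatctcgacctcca
Traf3: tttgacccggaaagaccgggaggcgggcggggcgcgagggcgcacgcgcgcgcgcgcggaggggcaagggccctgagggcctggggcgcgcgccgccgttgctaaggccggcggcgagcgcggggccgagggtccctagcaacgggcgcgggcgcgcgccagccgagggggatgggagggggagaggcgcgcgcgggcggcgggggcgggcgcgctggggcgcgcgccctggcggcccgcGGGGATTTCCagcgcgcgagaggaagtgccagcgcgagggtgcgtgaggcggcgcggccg
The Tnip1 window (chr10:39584912-39585211, minus strand) holds a run in which 3 overlapping matches begin 86 to 84 bases before the start. Single matches begin 31 bases before the start in Nfkbia (chr6:78597023-78597322, minus strand), 20 in Nfkb2 (chr1:255108124-255108423, plus strand) and 10 in Traf3 (chr6:136026799-136027098, plus strand). No window was found for Birc3, Ier3, Ikbke, Ripk2, Tradd or Ikbkb.

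The first question was what TNF did to the pathway's own genes in each gel. In collagen 14 of 34 members rose and 0 fell, where 3.27% of all genes rose and 3.10% fell. The median member difference was 0.22, against 0.00 over all genes. In fibrin 9 of 34 rose and 0 fell, where 1.65% of all genes rose and 1.47% fell, with a median of 0.14 against 0.01. No array is shared between these comparisons, and 8 members rose in both gels (Birc3, Tnip1, Nfkbia, Nfkb2, Nfkbie, Ier3, Nfkbib and Traf3), against 0.754% of all genes.

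The second question was how the gel itself set these genes. Without TNF, 16 of 34 members were higher in fibrin than in collagen and 0 lower, with a median of 0.31 against -0.01 over all genes. Of all genes 5.35% were higher and 5.19% lower, or 767 and 743, which became 1217 and 474 after each array was centred on its median. With TNF in both gels, 16 of 34 were again higher in fibrin and 0 lower, with a median of 0.31 against 0.00. Of all genes 4.55% were higher and 3.64% lower, or 652 and 521, which became 880 and 387 after centring. These comparisons too contrast different arrays but share the estimate of spread. In both, 12 members were higher in fibrin, against 2.32% of all genes. Each comparison of gels does share arrays with the TNF comparisons (untreated collagen stands in 2 of them, for example), so their values are given side by side only.

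Most macrophage markers differed between the gels with and without TNF, and most smooth muscle markers without it. Markers of all the cell types listed are given here beside the gel and TNF counts. Of 10 macrophage markers 8 were lower and 0 higher in fibrin, without TNF and again with it, and their summed level was 12.64 to 12.92 in collagen control, 12.52 to 12.90 in collagen TNF, 12.05 to 12.35 in fibrin control and 12.05 to 12.20 in fibrin TNF (log2). Adgre1 went the other way without a call, at 9.20 to 10.11 in collagen control and 10.16 to 10.44 in fibrin control. With TNF it stood at 9.67 to 9.98 in collagen and 10.25 to 10.50 in fibrin. With TNF in fibrin 1 of the 10 rose (Cd68) and 1 fell (C1qc). Of 6 smooth muscle markers 4 were lower in fibrin without TNF and 3 fell with TNF in collagen, with sums of 11.61 to 11.96 in collagen control, 11.24 to 11.39 in collagen TNF, 11.13 to 11.53 in fibrin control and 11.06 to 11.26 in fibrin TNF. Of 6 neutrophil markers 1, S100a9, was higher in untreated fibrin, with sums of 6.69 to 6.82 in collagen control and 6.84 to 7.26 in fibrin control. Mean levels of these 6 ran from 2.70 (S100a8) to 5.07 (S100a9), below the lowest array median of 5.89. The part of such low levels in this difference was not tested. Of 4 endothelial markers and 4 T and B cell markers 0 were called in any of the 4 group comparisons. Of 6 fibroblast markers 1 rose (Pdgfra) and 1 fell (Dpt) with TNF in collagen, Dpt also fell with TNF in fibrin and was lower in untreated fibrin, and Pdgfra and Lum were lower in fibrin with TNF. The part of these markers in the members' differences was not tested.

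**Figure D1:**
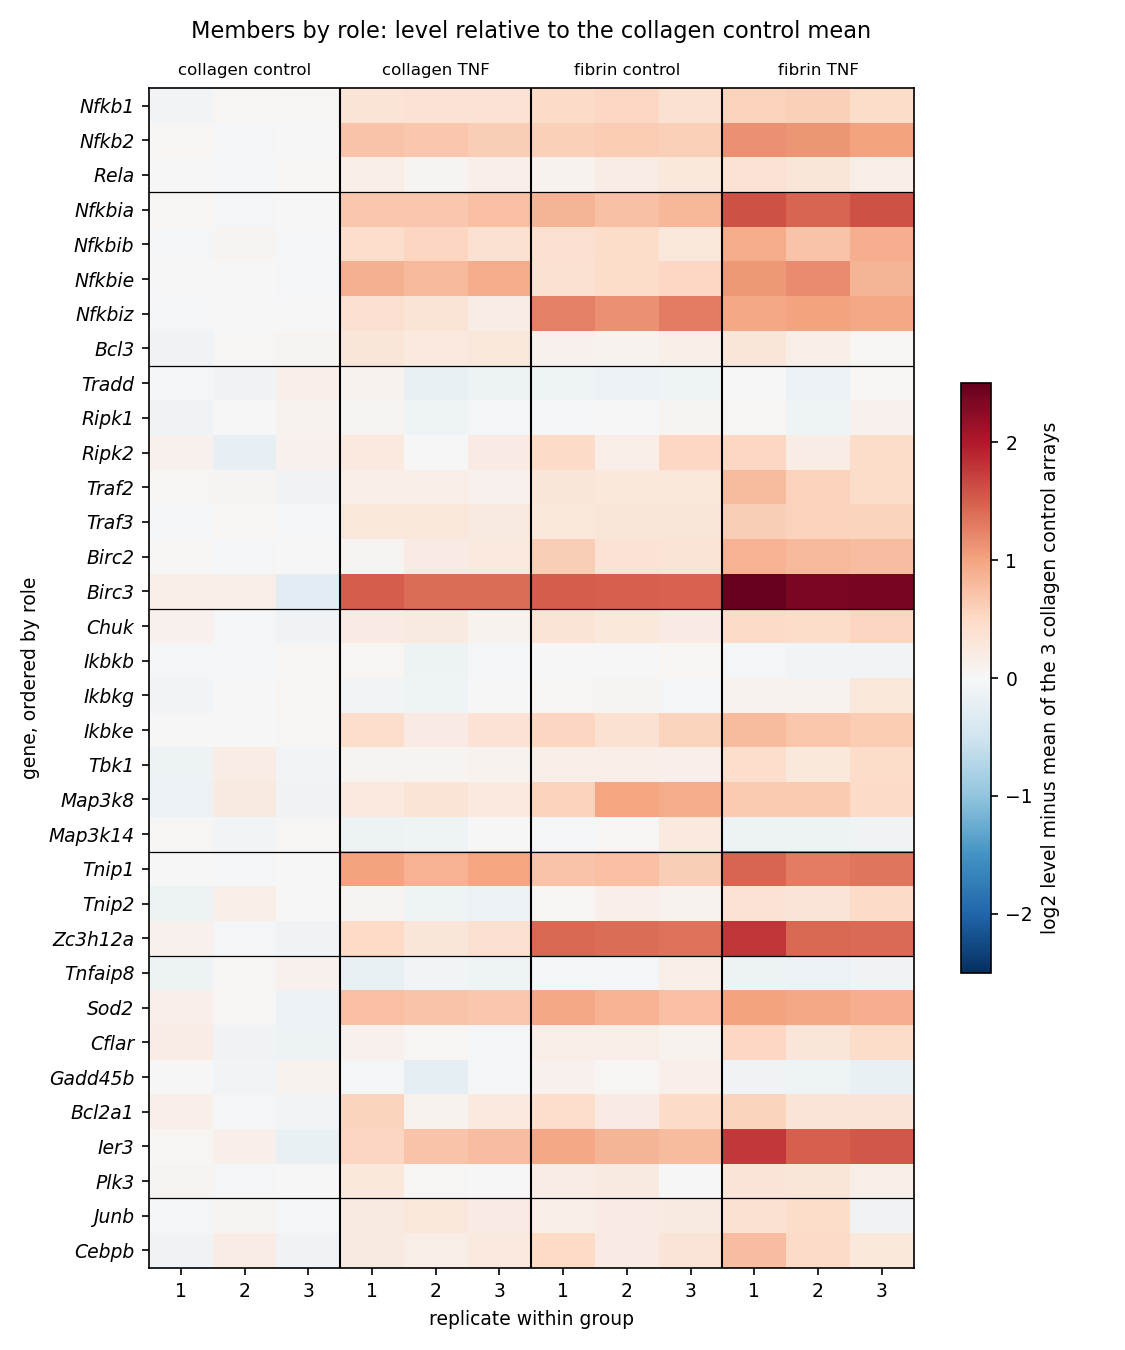
Level of each of the 34 members (rows, grouped by role with lines between roles) on each of the 12 arrays (columns, 3 per group), as the log2 level minus the mean of the 3 collagen control arrays. Birc3, Nfkbia, Tnip1, Nfkb2 and Ier3 are raised in collagen TNF and fibrin control and highest in fibrin TNF, Nfkbiz is highest in fibrin control, and Ripk1 and Ikbkb stay near 0 throughout.

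Among the NF-kB subunits, the precursor genes moved and Rela did not pass. Nfkb2 read 8.54, 8.46 and 8.51 on the collagen control arrays, 9.22, 9.17 and 9.12 with TNF in collagen, 9.09, 9.13 and 9.09 on the fibrin control arrays and 9.65, 9.61 and 9.50 with TNF in fibrin. These are the levels of the gene for p100, the precursor of p52 and the substrate of the noncanonical pathway. Every collagen TNF array lay above every collagen control array, and every fibrin TNF array above all others. Nfkb2 rose by 0.67 ± 0.06 in collagen (adjusted p = 3.67e-05) and by 0.48 ± 0.06 in fibrin (adjusted p = 0.00113).

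The Nfkb1 level was 9.40, 9.51 and 9.49 in collagen control, 9.82, 9.83 and 9.84 in collagen TNF, 9.95, 9.98 and 9.86 in fibrin control and 10.05, 10.06 and 9.92 in fibrin TNF. Nfkb1 encodes p105, the precursor of p50. The collagen control arrays were the lowest, and the fibrin control and fibrin TNF arrays overlapped. Nfkb1 rose by 0.36 ± 0.07 with TNF in collagen (adjusted p = 0.00457) and was 0.46 ± 0.07 higher in fibrin without TNF (adjusted p = 0.000467), while its difference with TNF in fibrin was 0.08 ± 0.07 (adjusted p = 0.621). Rela, the gene for the p65 activator subunit, ran from 10.10 to 10.16 in collagen control to 10.30 to 10.49 in fibrin TNF. Its 4 group differences lay between 0.10 and 0.18, with adjusted p from 0.137 to 0.567. The gel difference without TNF passed after median centring (0.0467) and under no other setting.

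The IkB proteins were the role in which all 5 measured members rose with TNF in collagen, and 3 of 5 rose in fibrin. The shares over all genes were 3.27% and 1.65%. On the 3 arrays of each group, Nfkbia stood at 10.07, 9.98 and 10.03 (collagen control), 10.70, 10.70 and 10.78 (collagen TNF), 10.88, 10.77 and 10.86 (fibrin control) and 11.62, 11.48 and 11.62 (fibrin TNF). Nfkbia encodes IkB-alpha, the classical inhibitor that NF-kB itself induces. Collagen TNF and fibrin control arrays lay close together (10.70 to 10.78 and 10.77 to 10.88), below every fibrin TNF array and above every collagen control array. TNF raised it by 0.70 ± 0.07 in collagen (adjusted p = 3.96e-05) and by 0.74 ± 0.07 in fibrin (adjusted p = 0.000104). Fibrin exceeded collagen by 0.81 ± 0.07 without TNF (adjusted p = 4.32e-06) and by 0.85 ± 0.07 with it (adjusted p = 7.15e-06). The difference of the TNF effect, fibrin minus collagen, was 0.04 with an interval of -0.16 to 0.24 (adjusted p = 0.916).

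Nfkbib read 8.25, 8.37 and 8.28 on the collagen control arrays, 8.74, 8.83 and 8.68 with TNF in collagen, 8.70, 8.75 and 8.59 on the fibrin control arrays and 9.22, 9.02 and 9.20 with TNF in fibrin. Nfkbib encodes IkB-beta, a slower inhibitor of the same dimers. The collagen control arrays were the lowest, the fibrin TNF arrays the highest, and collagen TNF and fibrin control arrays overlapped between them. It rose by 0.45 ± 0.08 in collagen (adjusted p = 0.00296) and 0.46 ± 0.08 in fibrin (adjusted p = 0.00484), and the interval of the difference was -0.22 to 0.25.

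The Nfkbie level was 7.90, 7.90 and 7.86 in collagen control, 8.78, 8.71 and 8.82 in collagen TNF, 8.27, 8.35 and 8.40 in fibrin control and 8.98, 9.07 and 8.73 in fibrin TNF. Nfkbie, the gene for IkB-epsilon, followed TNF more than the gel, with collagen TNF arrays above every fibrin control array. It rose by 0.88 ± 0.08 in collagen (adjusted p = 4.52e-05) and 0.59 ± 0.08 in fibrin (adjusted p = 0.00215). Fibrin exceeded collagen by 0.45 ± 0.08 without TNF (adjusted p = 0.00375), and with TNF the gels overlapped, at a difference of 0.16 ± 0.08 (adjusted p = 0.300).

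On the 3 arrays of each group, Nfkbiz stood at 7.31, 7.33 and 7.34 (collagen control), 7.73, 7.68 and 7.51 (collagen TNF), 8.58, 8.48 and 8.61 (fibrin control) and 8.30, 8.33 and 8.30 (fibrin TNF). Nfkbiz encodes IkB-zeta, a nuclear member of the family that works as a coactivator for a subset of NF-kB targets. Fibrin control arrays were the highest of the 4 groups, and no group overlapped another. The gel difference without TNF was 1.23 ± 0.07 (adjusted p = 2.84e-07), a 2.34-fold higher level in fibrin, and it had the smallest p of any member in that comparison. TNF raised Nfkbiz by 0.31 ± 0.07 in collagen (adjusted p = 0.0177), a call lost when any of collagen control replicates 1 to 3 or collagen TNF replicates 1 or 2 was left out (adjusted p from 0.0539 to 0.0840) or when only the collagen arrays were fitted (0.0531). In fibrin its difference was -0.24 ± 0.07 (adjusted p = 0.0939), with every TNF array below every control array. Without the dimmest 33.3% of genes it counted as a fall (0.0471), and the members called in fibrin became 11 higher and 1 lower.

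Bcl3 read 6.96, 7.08 and 7.11 on the collagen control arrays, 7.35, 7.30 and 7.34 with TNF in collagen, 7.15, 7.14 and 7.19 on the fibrin control arrays and 7.35, 7.20 and 7.09 with TNF in fibrin. Bcl3, a nuclear IkB-like protein that binds p50 and p52 dimers, had its highest mean with TNF in collagen. It rose there by 0.28 ± 0.07 (adjusted p = 0.0429). That call was lost once replicate numbers were blocked within each gel (adjusted p = 0.0700) and over all groups (0.0545), with only the collagen arrays fitted (0.0512), with all probe sets tested (0.0743), without any 1 of the 6 collagen arrays (0.0715 to 0.142), without any of the 3 fibrin control arrays (0.0553 to 0.0581) or without fibrin TNF replicate 2 (0.0547). The other differences of Bcl3 between groups did not pass.

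**Figure D2:**
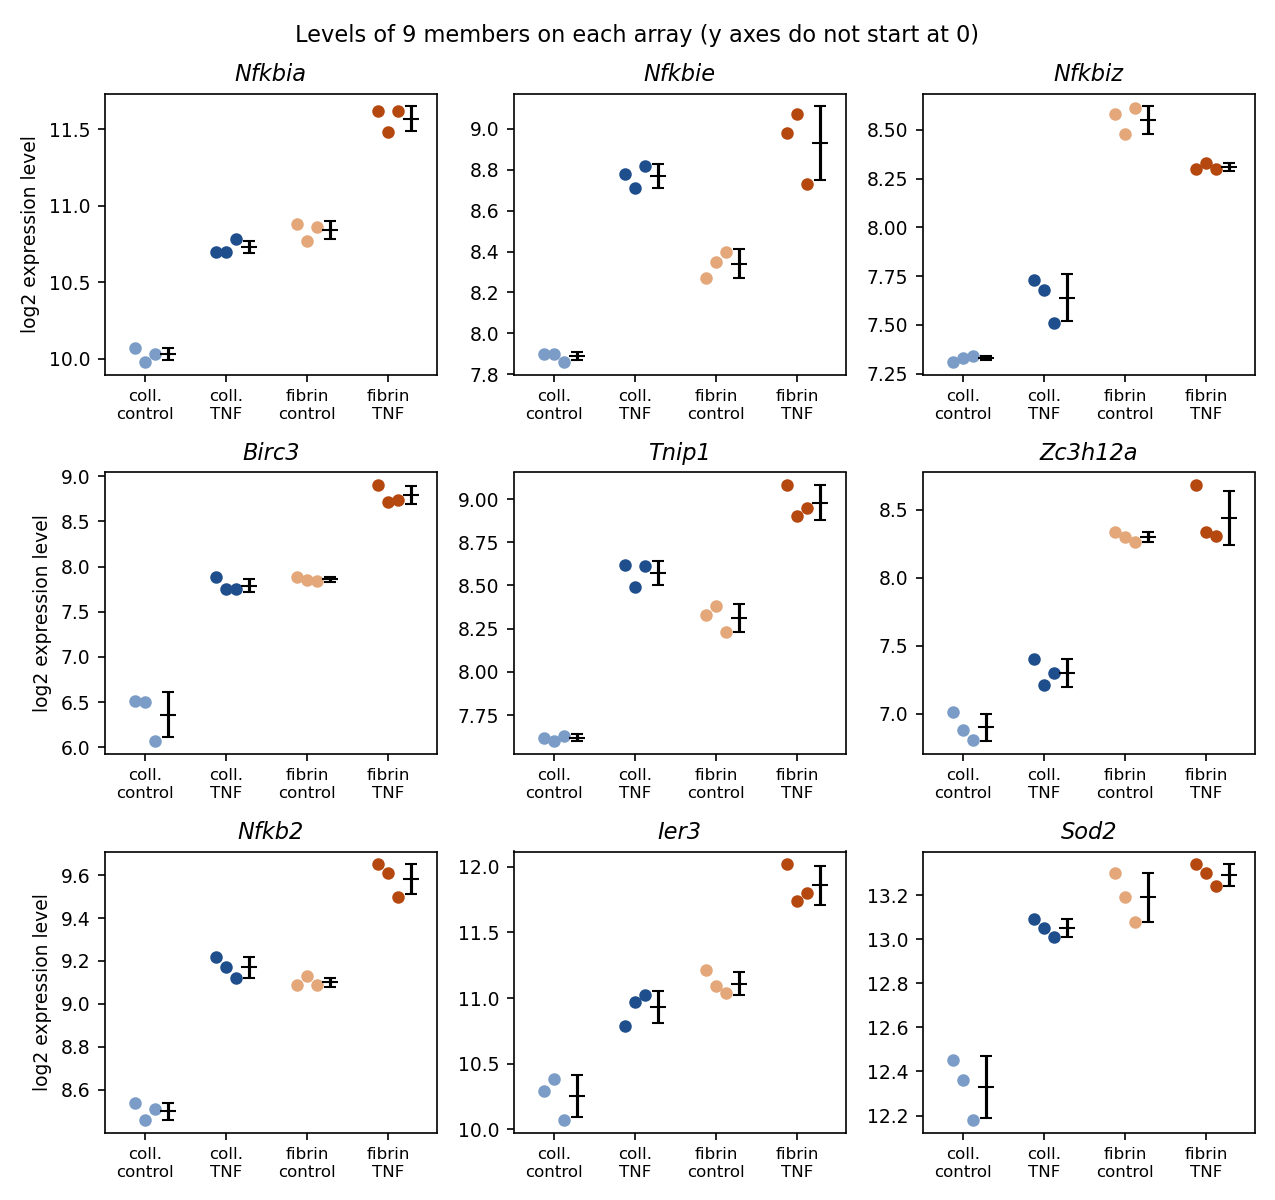
Log2 expression level of 9 members on each array (dots, 3 per group), with the group mean and SD beside them (black); the y axes do not start at 0. Nfkbia, Birc3, Tnip1, Nfkb2 and Ier3 are highest on the 3 fibrin TNF arrays, Nfkbiz on the fibrin control arrays, and Sod2 lies between 13.01 and 13.34 in every group but collagen control.

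Of 7 measured adaptors and ubiquitin ligases next to the receptor, 2 rose with TNF in collagen and 3 in fibrin. The shares over all genes were 3.27% and 1.65%. The Birc3 level was 6.51, 6.50 and 6.07 in collagen control, 7.88, 7.75 and 7.75 in collagen TNF, 7.88, 7.85 and 7.84 in fibrin control and 8.90, 8.72 and 8.74 in fibrin TNF. Birc3 encodes cIAP2, a ubiquitin ligase of the TNF receptor complex that is itself induced by NF-kB. The collagen control arrays were far below the others, collagen TNF and fibrin control arrays overlapped, and fibrin TNF arrays were the highest. TNF raised Birc3 2.70-fold in collagen (1.43 ± 0.11, adjusted p = 4.52e-06) and 1.91-fold in fibrin (0.93 ± 0.11, adjusted p = 0.000529). The untreated gels differed by 1.50 ± 0.11 (adjusted p = 1.23e-06), and the gels with TNF by 0.99 ± 0.11 (adjusted p = 6.43e-05). The difference of the TNF effect, -0.50 (interval -0.83 to -0.18), did not pass (adjusted p = 0.149).

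On the 3 arrays of each group, Birc2 stood at 8.30, 8.24 and 8.27 (collagen control), 8.34, 8.47 and 8.52 (collagen TNF), 8.88, 8.64 and 8.62 (fibrin control) and 9.13, 9.08 and 9.04 (fibrin TNF). Birc2, the gene for the sister ligase cIAP1, separated by gel: all fibrin arrays lay above all collagen arrays. It was higher in fibrin by 0.44 ± 0.08 without TNF (adjusted p = 0.00267) and by 0.64 ± 0.08 with it (adjusted p = 0.000219). Its rise with TNF in fibrin was 0.37 ± 0.08 (adjusted p = 0.0237), lost without fibrin control replicate 2 or 3 or fibrin TNF replicate 1 (adjusted p = 0.101, 0.111 and 0.0907) and in a fit of the 2 fibrin groups alone (0.105).

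Traf3 read 6.91, 6.99 and 6.92 on the collagen control arrays, 7.22, 7.22 and 7.17 with TNF in collagen, 7.20, 7.25 and 7.25 on the fibrin control arrays and 7.56, 7.51 and 7.49 with TNF in fibrin. Traf3 encodes an adaptor that, with Traf2 and the cIAP ligases, keeps the kinase NIK at a low level. Its differences were small but the replicates lay close, with SD between 0.02 and 0.04 in each group. It rose by 0.26 ± 0.06 in collagen (adjusted p = 0.0153) and 0.29 ± 0.06 in fibrin (adjusted p = 0.0144), and was higher in fibrin by 0.29 ± 0.06 and 0.32 ± 0.06 without and with TNF (adjusted p = 0.00534 and 0.00353). The collagen call was lost without collagen control replicate 1 or 3 or collagen TNF replicate 1 or 2 (0.0540 to 0.0667). The fibrin call was lost without fibrin control replicate 3 or fibrin TNF replicate 1 (0.0528 and 0.0574), and with only the fibrin arrays fitted (0.110).

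The Traf2 level was 8.37, 8.41 and 8.25 in collagen control, 8.51, 8.50 and 8.44 in collagen TNF, 8.65, 8.60 and 8.61 in fibrin control and 9.14, 8.91 and 8.80 in fibrin TNF. Traf2, the adaptor that brings the cIAP ligases to the receptor, was highest on the fibrin TNF arrays. It was higher in fibrin with TNF by 0.47 ± 0.08 (adjusted p = 0.00350), while its TNF difference in fibrin, 0.34 ± 0.08 (adjusted p = 0.0516), passed under 5 of 22 other settings (down to 0.0215), among them replicate numbers blocked within each gel (0.0447). Its gel difference without TNF, 0.28 ± 0.08 (adjusted p = 0.0558), passed under 7 of 21 (down to 0.0179). Ripk2, the kinase downstream of NOD receptors, was not called, with a gel difference of 0.38 ± 0.12 without TNF (adjusted p = 0.0727) and 0.23 ± 0.12 with it (adjusted p = 0.308). The first passed under 5 of 21 other settings, among them a replicate block over all 4 groups (0.00155), under which the second passed too (0.0299). The death-domain adaptor gene Tradd and the kinase gene Ripk1 were called in none of the comparisons. Ripk1 stood at 8.63 to 8.84 over all 12 arrays, and the intervals of its 4 group differences stayed between -0.18 and 0.19.

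Among 7 kinases, 1 rose with TNF in collagen and 0 in fibrin, beside 3.27% and 1.65% of all genes. In each gel comparison 3 were higher in fibrin, beside 5.35% of all genes without TNF and 4.55% with it. Counts this small describe single genes and not the role. On the 3 arrays of each group, Ikbke stood at 6.36, 6.36 and 6.40 (collagen control), 6.80, 6.58 and 6.74 (collagen TNF), 6.90, 6.75 and 6.92 (fibrin control) and 7.17, 7.06 and 7.01 (fibrin TNF). Ikbke encodes IKK-epsilon, an inducible relative of the IkB kinases that also acts in interferon signalling. Its levels rose from collagen control through collagen TNF and fibrin control to fibrin TNF, with collagen TNF and fibrin control overlapping. TNF raised it by 0.33 ± 0.08 in collagen (adjusted p = 0.0215), a call lost without any 1 collagen control array or without collagen TNF replicate 1 or 3 (0.0590 to 0.0976). The gel differences were 0.48 ± 0.08 without TNF (adjusted p = 0.00121) and 0.38 ± 0.08 with it (adjusted p = 0.00865).

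Map3k8 read 7.65, 8.02 and 7.72 on the collagen control arrays, 8.05, 8.15 and 8.05 with TNF in collagen, 8.37, 8.79 and 8.72 on the fibrin control arrays and 8.46, 8.46 and 8.28 with TNF in fibrin. Map3k8 encodes Tpl2, a kinase held by p105 until the IkB kinases release it to the ERK pathway. The fibrin control arrays reached the highest values, and fibrin TNF arrays overlapped them. It was higher in untreated fibrin by 0.83 ± 0.12 (adjusted p = 0.000491), and with TNF the gels differed by 0.32 ± 0.12 (adjusted p = 0.128). The TNF differences were 0.28 ± 0.12 in collagen and -0.23 ± 0.12 in fibrin, and neither passed (adjusted p = 0.210 and 0.399).

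The catalytic subunit gene Chuk (IKK-alpha) was higher in fibrin by 0.27 ± 0.07 without TNF (adjusted p = 0.0283) and 0.31 ± 0.07 with it (adjusted p = 0.0163). The first call was lost without collagen control replicate 2 or 3 or fibrin control replicate 1 or 2 (0.0710 to 0.111). Separately, it was lost after quantile normalization of all 12 arrays (0.0543) and with only the untreated arrays fitted (0.0760). The second call was lost without collagen TNF replicate 3 or fibrin TNF replicate 3 (0.0839 and 0.0546). Tbk1, a kinase related to Ikbke, was higher in fibrin with TNF by 0.31 ± 0.08 (adjusted p = 0.0330). That call was lost without any 1 collagen TNF array or without fibrin TNF replicate 1 or 3 (0.0859 to 0.109). Separately, it was lost after quantile normalization of all 12 arrays (0.0809), with only the TNF arrays fitted (0.0512) and with all probe sets tested (0.0594). Ikbkb (IKK-beta), Ikbkg (the scaffold NEMO) and Map3k14 (NIK) were called in no comparison. Ikbkb lay between 8.35 and 8.53 on all 12 arrays.

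Among 3 measured feedback inhibitors, 2 rose with TNF in collagen and 1 in fibrin, beside 3.27% and 1.65% of all genes. The Tnip1 level was 7.62, 7.60 and 7.63 in collagen control, 8.62, 8.49 and 8.61 in collagen TNF, 8.33, 8.38 and 8.23 in fibrin control and 9.08, 8.90 and 8.95 in fibrin TNF. Tnip1 encodes ABIN1, which binds ubiquitin chains and works with A20 to damp TNF signalling. No group overlapped another, and the order was collagen control, fibrin control, collagen TNF and fibrin TNF. It rose 1.93-fold in collagen (0.95 ± 0.07, adjusted p = 5.01e-06) and 1.58-fold in fibrin (0.66 ± 0.07, adjusted p = 0.000415). The gel differences were 0.69 ± 0.07 without TNF (adjusted p = 3.16e-05) and 0.41 ± 0.07 with it (adjusted p = 0.00322).

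On the 3 arrays of each group, Zc3h12a stood at 7.01, 6.88 and 6.81 (collagen control), 7.40, 7.21 and 7.30 (collagen TNF), 8.34, 8.30 and 8.26 (fibrin control) and 8.68, 8.34 and 8.31 (fibrin TNF). Zc3h12a encodes Regnase-1, an RNase that degrades inflammatory mRNAs such as that of Il6. It separated by gel, with every fibrin array at 8.26 or above and every collagen array at 7.40 or below. It was 2.64-fold higher in untreated fibrin (1.40 ± 0.10, adjusted p = 1.12e-06) and 2.21-fold higher in fibrin with TNF (1.14 ± 0.10, adjusted p = 1.35e-05). With TNF it rose by 0.40 ± 0.10 in collagen (adjusted p = 0.0273), lost without collagen control replicate 2 or 3 or collagen TNF replicate 1 or 3 (0.0771 to 0.112), and differed by 0.14 ± 0.10 in fibrin (adjusted p = 0.533).

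Tnip2 read 7.71, 7.98 and 7.83 on the collagen control arrays, 7.90, 7.74 and 7.70 with TNF in collagen, 7.87, 7.96 and 7.93 on the fibrin control arrays and 8.20, 8.17 and 8.31 with TNF in fibrin. Tnip2, the gene for the related ABIN2, was highest on the fibrin TNF arrays. It was higher in fibrin with TNF by 0.45 ± 0.08 (adjusted p = 0.00401), and its TNF difference in fibrin was 0.31 ± 0.08 (adjusted p = 0.0671). The latter passed under 2 of 22 other settings (down to 0.0353).

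Of 7 measured survival and effector genes, 2 rose with TNF in collagen and 1 in fibrin, beside 3.27% and 1.65% of all genes. The Ier3 level was 10.29, 10.38 and 10.07 in collagen control, 10.79, 10.97 and 11.02 in collagen TNF, 11.21, 11.09 and 11.04 in fibrin control and 12.02, 11.74 and 11.80 in fibrin TNF. Ier3, an immediate early gene that modulates survival under stress, had the same order of groups as Nfkbia. TNF raised it by 0.68 ± 0.10 in collagen (adjusted p = 0.00127) and 0.74 ± 0.10 in fibrin (adjusted p = 0.00159). Fibrin exceeded collagen by 0.87 ± 0.10 without TNF (adjusted p = 9.91e-05) and 0.93 ± 0.10 with it (adjusted p = 7.93e-05), and the interval of the difference of TNF effects was -0.25 to 0.38.

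On the 3 arrays of each group, Sod2 stood at 12.45, 12.36 and 12.18 (collagen control), 13.09, 13.05 and 13.01 (collagen TNF), 13.30, 13.19 and 13.08 (fibrin control) and 13.34, 13.30 and 13.24 (fibrin TNF). Sod2 encodes the manganese superoxide dismutase of mitochondria. The collagen control arrays were apart from all others, and fibrin control and fibrin TNF arrays overlapped. TNF raised it by 0.72 ± 0.08 in collagen (adjusted p = 0.000140), and its difference in fibrin was 0.10 ± 0.08 (adjusted p = 0.606). Without TNF it was higher in fibrin by 0.86 ± 0.08 (adjusted p = 1.56e-05). With TNF the gels differed by 0.24 ± 0.08 (adjusted p = 0.0910), which passed under 5 of the other settings (0.0194 to 0.0488).

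Cflar, which encodes the caspase inhibitor c-FLIP, was higher in fibrin with TNF by 0.39 ± 0.09 (adjusted p = 0.0140), lost without collagen TNF replicate 3 or fibrin TNF replicate 1 (0.0650 and 0.0622). Bcl2a1, a relative of the survival protein BCL2, was not called, with a gel difference of 0.37 ± 0.12 without TNF (adjusted p = 0.0684) and a TNF difference of 0.30 ± 0.12 in collagen (adjusted p = 0.187). The first passed under 5 of 21 other settings, and both passed with a replicate block over all 4 groups (0.0127 and 0.0490). Gadd45b, Plk3 and Tnfaip8, and the transcription factor genes Junb and Cebpb, were called in no comparison. After median centring, Cebpb passed for the gel difference without TNF (0.0483). Junb passed for TNF in collagen once fibrin TNF replicate 3 was left out (0.0406). Altogether 13 of 34 members were called nowhere, against 83.7% of all genes. Over the 4 group comparisons their differences ran from -0.21 to 0.38 and the bounds of their intervals from -0.38 to 0.64.

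The last comparison asked whether TNF acted differently in the 2 gels. Of 34 members 2 had a lower TNF effect in fibrin, Nfkbiz and Sod2, and 0 a higher one, where 0.866% of all genes had a lower and 0.370% a higher effect, 1.24% in all. For Nfkbiz the difference was -0.56 ± 0.10 (adjusted p = 0.0166), between a rise in collagen and lower values in fibrin. For Sod2 it was -0.62 ± 0.11 (adjusted p = 0.0202), at a mean level above that of 99.8% of genes. The part of so high a signal in this difference was not tested. Without TNF both genes stood higher in fibrin, a comparison that uses some of the same arrays. Leaving out collagen TNF replicate 2 took away both calls (adjusted p = 0.0541 for Nfkbiz and 0.0555 for Sod2), and Sod2 also lost its call without collagen TNF replicate 1, fibrin control replicate 2 or fibrin TNF replicate 3 (0.0536 to 0.0577). The other 32 members ran from -0.51 for Map3k8 to 0.37 for Tnip2 and did not pass. A p that misses the threshold does not show equal effects.

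**Figure D3:**
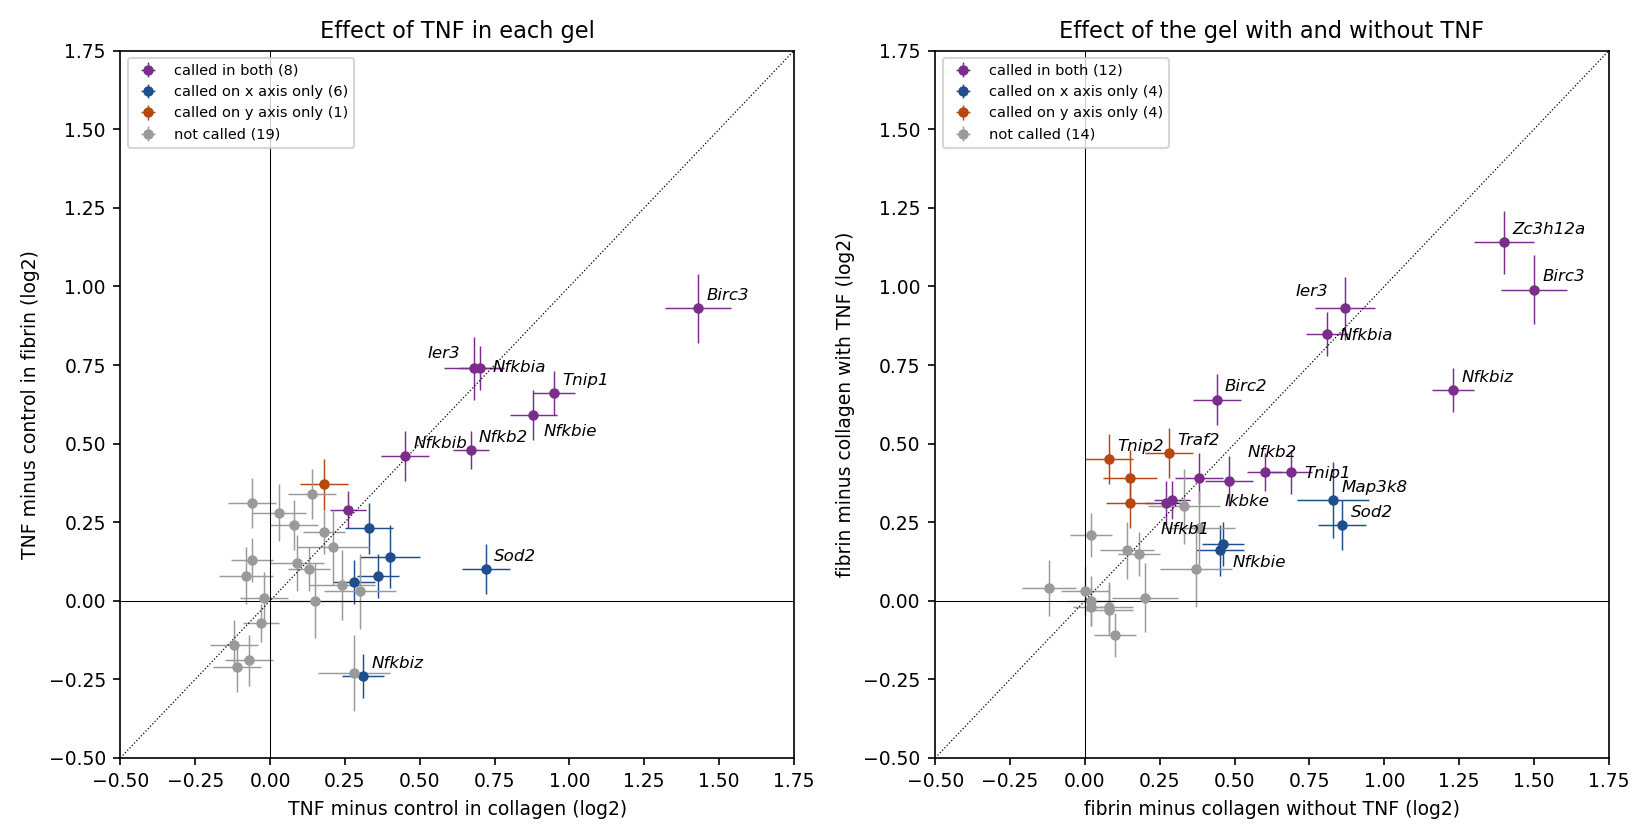
Log2 differences of the 34 members with SE bars: left, TNF minus control in collagen (x) against fibrin (y); right, fibrin minus collagen without TNF (x) against with TNF (y); the dotted line marks equal differences. On the left 8 members are called in both gels, 6 in collagen alone and 1 in fibrin alone. Nfkbiz and Sod2, whose difference of TNF effects was called, lie below the line, as do others such as Birc3 and Map3k8. On the right 12 are called in both states, 4 without TNF alone and 4 with TNF alone.

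Genes outside the list were looked at through 2 others, likewise drawn up with earlier results known. Of 21 measured further pathway components (29 listed), such as TAK1 complex, LUBAC and receptor genes, 1 rose and 0 fell with TNF in collagen, and 0 rose and 1 fell in fibrin. Of the same 21, 1 was higher and 0 lower in fibrin without TNF, and 3 higher and 0 lower with TNF. These shares, 4.76% to 14.3%, stand beside 6.37%, 3.13%, 10.5% and 8.19% of all genes called in either direction. Tnfrsf1b, the second TNF receptor, rose by 0.47 ± 0.11 in collagen (adjusted p = 0.0241) and was higher in fibrin by 0.98 ± 0.11 without TNF (adjusted p = 7.09e-05) and 0.73 ± 0.11 with it (adjusted p = 0.00104). The adaptor genes Tifa (0.44 ± 0.12, adjusted p = 0.0430) and Tank (0.43 ± 0.09, adjusted p = 0.00759) were higher in fibrin with TNF. Myd88, the adaptor of Toll-like receptors, fell with TNF in fibrin (-0.26 ± 0.06, adjusted p = 0.0385).

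Of 24 textbook NF-kB target genes for adhesion, cytokines and enzymes, 16 rose and 0 fell with TNF in collagen, and 10 rose and 0 fell in fibrin. Without TNF 20 were higher in fibrin and 0 lower, and with TNF 16 were higher and 1, the chemokine gene Ccl20, lower. Of all genes 3.27% rose and 3.10% fell with TNF in collagen, and 1.65% rose and 1.47% fell in fibrin. Between gels 5.35% were higher and 5.19% lower in fibrin without TNF, and 4.55% and 3.64% with it. Median differences were 0.90, 0.53, 1.64 and 0.75 in that order, beside 0.22, 0.14, 0.31 and 0.31 for the 34 members. Nos2, which makes nitric oxide in inflamed tissue, rose by 3.44 ± 0.14 in collagen and 1.31 ± 0.14 in fibrin (adjusted p = 6.34e-08 and 0.000461). Ptx3, a secreted pattern recognition protein, rose by 2.20 ± 0.12 and 1.06 ± 0.12 (adjusted p = 2.44e-07 and 0.000461). Cxcl1, a neutrophil attractant, and Il1a rose in collagen by 1.81 ± 0.18 and 1.88 ± 0.22 (adjusted p = 6.50e-05 and 0.000173), and their differences in fibrin, 0.67 ± 0.18 and 0.74 ± 0.22, did not pass. Of the 24, 7 had a lower and 1 a higher TNF effect in fibrin than in collagen, against 0.866% and 0.370% of all genes. The gene with the higher effect was Sele, for the endothelial adhesion protein E-selectin. Its TNF differences were 0.04 ± 0.13 in collagen and 1.79 ± 0.13 in fibrin, with a difference of effects of 1.75 ± 0.18 (adjusted p = 0.000482). In collagen Sele read 5.49 to 5.98 without and 5.54 to 5.84 with TNF, near the medians of the collagen arrays (5.94 to 5.98). Whether a small rise could be seen at such low levels was not tested.

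**Figure D4:**
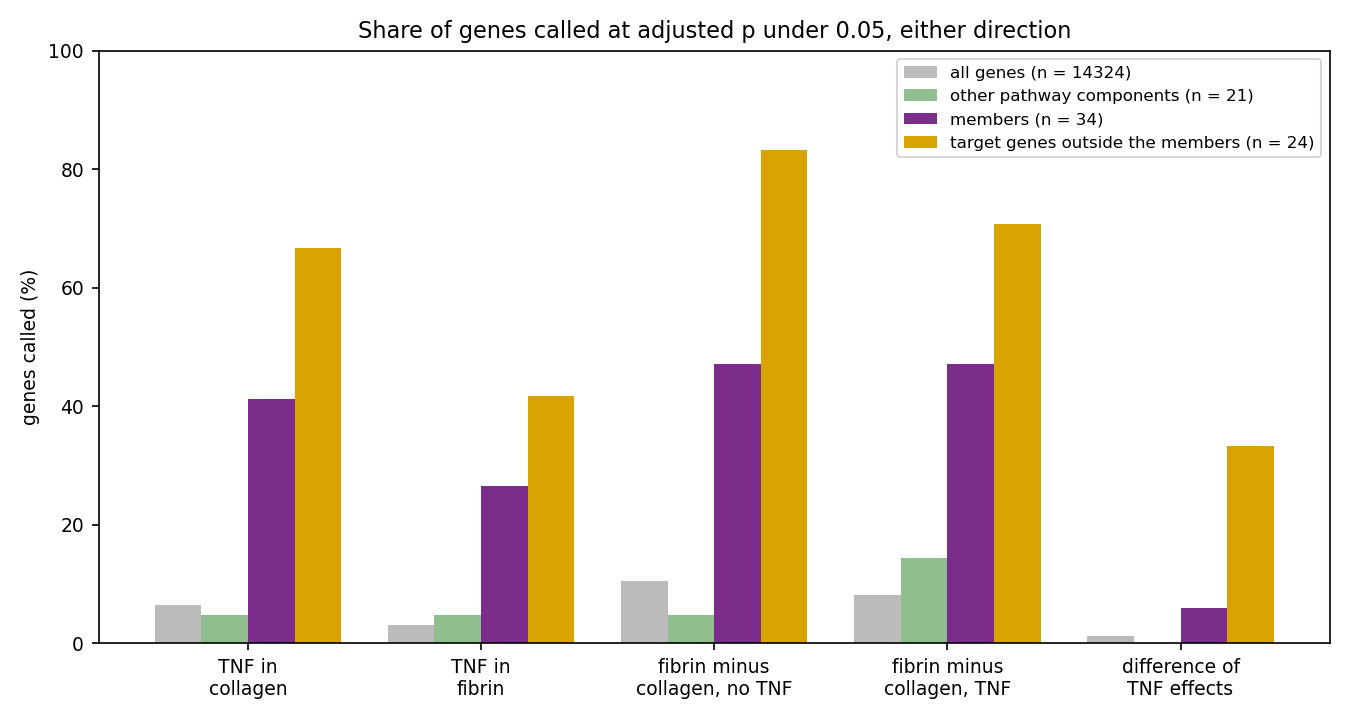
Share of genes called in either direction (y axis, percent) in each of the 5 comparisons, for all 14324 genes, 21 other pathway components, the 34 members and 24 target genes outside the members. The members stand at 41.2%, 26.5%, 47.1%, 47.1% and 5.88%, between the other components and the target genes in each comparison.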

How the data were processed

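RNA from 12 samples, 200 ng of total RNA each, was hybridised to 1-colour rat arrays. The authors deposited 1 table of processed values for 27342 probe sets, and from its range of 1.44 to 14.07 these deposited values were taken as log2 expression levels. The submitters' processing notes name limma; the background correction, summarisation, normalization and genome build are not given in the sources used here. Column medians were 5.94 to 5.98 in collagen and 5.89 to 5.93 in fibrin, and the values were used as deposited. No value was missing. Precision is set by having 3 arrays per group, with a median standard error of 0.09 for a comparison of groups and 0.13 for a difference of TNF effects.

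The platform annotation gave 15097 probe sets 1 gene symbol, 323 several and 11922 none. Probe sets with 1 symbol gave 14324 genes, of which 499 had more than 1 probe set, and the probe set of highest mean was kept. Models with 1 mean per group were fitted by lmFit and eBayes (limma 3.58.1, R 4.3.3), with Benjamini-Hochberg adjustment over all genes and a threshold of 0.05, and were tested on simulated data.

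The members and lists were chosen with earlier results of these data known. All measured members could be named. Values in every sample were given for members called with TNF in both gels, for those with 1 of the 3 smallest p in a comparison, and for subunits, IkB proteins and feedback inhibitors with a call. Those of Birc2, Traf2, Ikbke and Map3k8 were added after their values were seen, as were the named marker genes, Ccl20 and Sele. Of each other list up to 4 called genes with the smallest sum of adjusted p over the 5 comparisons were named. Promoter windows are RefSeq's, assembly GRCr8.

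Other settings tried were median centring, quantile normalization, a filter dropping the dimmest 33.3% of genes, fits of only the groups compared, another prior, array weights, other uses of probe sets, a replicate block, and each array left out. Replicate numbers are shared by the groups, and deviations from the group means correlated at 0.13, 0.14 and 0.14 between same-numbered control and TNF arrays in collagen and 0.25, 0.14 and 0.16 in fibrin. A replicate block within each gel was therefore tried as another setting, while the fit behind the reported values took no pairs. Between gels the correlations were 0.03 to 0.23. A block over all groups was tried too, and the reported fit took no pairs there either.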

Additional observations from a re-analysis of the deposited data

Results flagged for a closer look

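The effect of TNF differed between the gels, by the interaction term of the limma fit, for 2 members. For Nfkbiz the difference, fibrin minus collagen, was -0.56 on the log2 scale (adjusted p = 0.0166), and for Sod2 it was -0.62 (adjusted p = 0.0202). Of the target genes outside the members named for their smallest summed adjusted p, Nos2 differed by -2.13 (adjusted p = 0.000434) and Ptx3 by -1.14 (adjusted p = 0.00526). Over all 24 such targets, 7 had a lower TNF effect in fibrin and 1, Sele, a higher one (1.75).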

How the results depend on the processing

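Of 57 calls of members, 44 were kept under every alternative, 13 were lost under at least 1 and 0 reversed, and 12 results gained a call. Leaving out 1 array at a time gave 9 to 15 members called for TNF in collagen (14 as reported), 7 to 10 for TNF in fibrin (9), 15 to 17 for the gels without TNF (16), 13 to 16 with TNF (16) and 0 to 2 for the difference of TNF effects (2). The count of 9 in collagen came without collagen control replicate 3 or collagen TNF replicate 1. For the difference, the count was 0 without collagen TNF replicate 2 and 1 without collagen TNF replicate 1, fibrin control replicate 2 or fibrin TNF replicate 3. The other settings gave 12 to 14, 7 to 12, 15 to 21, 15 to 18 and 2 to 2 members in the same order. When replicate numbers were blocked within each gel (the replicate block), 13, 10 and 2 members were called for TNF in collagen, TNF in fibrin and the difference of effects. That block took away Bcl3 in collagen (adjusted p = 0.0700), added Traf2 in fibrin (0.0447) and changed no other member's call. With the block over all 4 groups the counts were 14, 10, 19, 18 and 2. Among all genes, the difference of effects had 177 calls as reported, 294 without dim genes, 339 with a trended and robust prior, 276 with the block over all groups, and 117, 103 and 112 without collagen TNF replicate 1, collagen TNF replicate 2 and fibrin control replicate 2. TNF in collagen had 912 calls and 568 to 601 without collagen control replicate 2 or 3 or collagen TNF replicate 1 or 2. TNF in fibrin had 448, 230 when only the fibrin arrays were fitted, and 237 to 287 without fibrin control replicate 2 or 3 or fibrin TNF replicate 1 or 3. The gels with TNF had 1173 calls, and 727 and 768 without collagen TNF replicate 3 and fibrin TNF replicate 1. The cause of these changes beyond the smaller number of arrays or genes was not tested. Differences of TNF effects have wider errors than those of 2 groups, so small ones were not detectable here.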
